A study of Mus musculus with 6 samples.

Results

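The genes described here are 9 regulators of alternative splicing: Mbnl1, Mbnl2 and Mbnl3 (muscleblind-like proteins), Celf1 and Celf2 (CUGBP Elav-like proteins), Rbfox1 and Rbfox2 (RNA-binding Fox proteins), and the RNA-binding motif proteins Rbm20 and Rbm24. They were chosen by gene symbol from the 39010 genes of the deposited expression table, in which each symbol stands on 1 line, and all 9 were found. RNA had been sequenced from skeletal muscle of the hindlimb, in wild-type mice whose strain background is mixed, on day 2, 7 or 14 after birth (stages P2, P7 and P14). Each stage has 2 biological replicates. The 3 groups share genotype and tissue and differ in age and, by the sex-linked transcripts given below, in the mix of sexes. There was no treatment, and whether a library holds 1 animal or several is not given in the sources used here. The unit is FPKM, sequenced fragments scaled by transcript length and by the fragments mapped in the library. Levels of different genes can thus be set side by side as far as the gene models used are complete.

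Alternative splicing joins different exons of one gene into different mRNAs, and skeletal muscle changes many such choices after birth as fetal protein isoforms give way to adult ones. Muscleblind-like proteins bind pre-mRNA and promote many adult choices, and their capture on RNA with expanded CUG repeats is a central step in myotonic dystrophy. CELF proteins instead promote the fetal choice at a number of the same exons. Fox proteins bind the motif UGCAUG beside regulated exons, Rbm20 is best known for controlling titin splicing in heart, and Rbm24 promotes inclusion of muscle exons. The values here are gene levels of RNA. They do not measure which exons were joined.

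Between P2 and P14 the RNA of Mbnl1, Mbnl2, Rbfox1, Rbm20 and Rbm24 rose and that of Mbnl3 and Celf2 fell, Rbm24 being called in 9 of 18 alternative analyses. The differences on FPKM were largest for Mbnl3, whose mean at P14 was 0.144 times that at P2, and for Mbnl1 and Rbfox1, whose P14 means were 2.45 and 2.44 times those at P2. Within the Mbnl, Celf and Rbfox families the balance moved. Rbfox1 stood below Rbfox2 in all P2 and P7 libraries and above it in both P14 libraries. Mbnl1 was at 106 to 159 times Mbnl3 at P14, against 7.09 to 7.61 times at P2.

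On GRCm38, Mbnl1 lies at chr3:60501252-60629748 on the plus strand, Mbnl2 at chr14:120275669-120431697 (plus), Mbnl3 at chrX:51117269-51206532 (minus), Celf1 at chr2:90940382-91019497 (plus) and Celf2 at chr2:6539694-7509563 (minus), as the deposited table gives them. Rbfox1 lies at chr16:6809222-7412479 (plus), Rbfox2 at chr15:77078990-77307053 (minus), Rbm20 at chr19:53677306-53867080 (plus) and Rbm24 at chr13:46418300-46431090 (plus). Each of the 9 identifiers is a protein-coding gene in GENCODE M21. There the Rbfox1 gene starts 923867 bases upstream of the start in the deposited table, and the Mbnl1 gene 28422 bases upstream. Any RNA from the most upstream first exons of these 2 genes was not part of the listed gene models. Exons of Mbnl2 overlap those of an antisense gene, Gm26679, which stood at up to 1.94 FPKM, and exons of Celf2 overlap those of the antisense gene Gm26565, at up to 0.0285 FPKM. The kit marks strand, but the sources used here do not say that counting took it into account, so reads in these overlaps cannot be assigned to one partner.

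RefSeq promoter windows of GRCm38.p6 were matched for 7 of the 9 genes, Rbfox2 and Rbm20 being named only. The 250 bases upstream of the start are printed for 3 genes that rose and 1 that fell, since these members moved in opposite directions. For Mbnl1 the window nearer to the deposited gene start is shown. The Mbnl3 window lies inside the deposited span of that gene, since the RefSeq start is downstream of the deposited one. Lower case is used except for E-boxes (CANNTG, read on either strand, the core that myogenic factors bind), which are in capitals.
Mbnl1 (chr3:60500929-60501178, plus strand): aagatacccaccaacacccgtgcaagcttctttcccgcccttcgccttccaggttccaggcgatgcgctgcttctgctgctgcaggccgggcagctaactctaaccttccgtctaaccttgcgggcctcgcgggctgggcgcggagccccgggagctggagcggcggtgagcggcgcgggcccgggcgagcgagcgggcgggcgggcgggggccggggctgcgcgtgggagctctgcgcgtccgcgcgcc
Mbnl2 (chr14:120275419-120275668, plus strand): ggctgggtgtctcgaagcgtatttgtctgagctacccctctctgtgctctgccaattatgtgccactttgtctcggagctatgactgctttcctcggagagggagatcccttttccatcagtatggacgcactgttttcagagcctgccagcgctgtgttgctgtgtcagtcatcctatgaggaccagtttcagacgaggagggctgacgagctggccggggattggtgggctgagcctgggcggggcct
Rbm24 (chr13:46418050-46418299, plus strand): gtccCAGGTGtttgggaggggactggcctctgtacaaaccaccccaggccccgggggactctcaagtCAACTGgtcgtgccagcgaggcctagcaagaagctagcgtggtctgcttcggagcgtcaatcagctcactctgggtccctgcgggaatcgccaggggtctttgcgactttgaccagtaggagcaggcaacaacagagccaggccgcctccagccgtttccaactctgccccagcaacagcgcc
Mbnl3 (chrX:51205991-51206240, minus strand): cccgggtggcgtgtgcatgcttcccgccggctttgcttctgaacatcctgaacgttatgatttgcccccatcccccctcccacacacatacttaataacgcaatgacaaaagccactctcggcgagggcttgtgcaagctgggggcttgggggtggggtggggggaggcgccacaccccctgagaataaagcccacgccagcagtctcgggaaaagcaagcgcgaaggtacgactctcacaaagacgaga

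Only the Rbm24 window of these 4 holds E-boxes, of which it has 2, neither with the letters CAGCTG. Windows not printed differ. The Rbfox1 window at chr16:7069585-7069834 has 2 E-boxes, 1 of them CAGCTG, and the other Mbnl1 window has 1 E-box. The RefSeq start of this Rbfox1 window lies 260613 bases after the deposited gene start, and the other Rbfox1 window lies far upstream of the deposited gene. Of the 5 Celf2 windows, all inside the deposited gene span, that at chr2:6872036-6872285 has none and the others have 1 or 2. The Celf1 window and the other Rbfox1 window have none. Of 32841 RefSeq promoter windows of the same 250 bases, 66.2% hold at least 1 E-box and 13.0% hold CAGCTG. None of the 4 printed windows holds the palindromic core of the MEF2 motif, which 3.2% of all windows hold. The Mbnl2 window has 2 CCAAT boxes (CCAAT, either strand), a motif in 33.9% of all windows, and the Mbnl1 window is the richest of the 4 in G and C, at 73.6%. A match is a description of letters, and no match says only that these letters are not in this window.

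The libraries were not equal in total. The sum of FPKM over all genes ran between 256116 and 402788 per library, 12175 to 13337 genes had at least 1 FPKM, and replicates of a stage correlated at r = 0.952 to 0.967 over 13566 genes (log2 scale, across genes, which are not independent replicates). Read counts are not in the table. The smallest repeated FPKM steps over 24 transcript lengths put the other libraries at a depth of 71.5% to 96.4% of that of P2 replicate 1, with both P14 libraries lowest. Over all tested genes the median log2 change was -0.27 for P7 against P2, 0.23 for P14 against P7 and -0.05 for P14 against P2, so values at P7 sat low across the table. Rescaling each library to the same sum (TPM) put these medians at -0.17, -0.16 and -0.35. The sex-linked transcripts split the replicates. Xist, expressed from the inactive X chromosome, stood at 74.7 FPKM in P2 replicate 2 and 61.2 FPKM in P7 replicate 1. It was at 0.567 FPKM or less in the other 4 libraries, and the Y-linked Ddx3y was high in those 4. P2 and P7 thus each hold a library of either kind, while both P14 libraries are low in Xist and high in Ddx3y. The part of sex in the differences of P14 from the earlier stages was not tested.

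Mbnl1, the main muscleblind protein of adult muscle, was at 23.8 and 27.9 FPKM at P2, 28.7 and 36.4 FPKM at P7, and 70.5 and 55.8 FPKM at P14. Both P14 libraries lay above all earlier ones, and the 3 stages rose in order without overlap. The log2 change (of FPKM + 1, as throughout) was 1.25 ± 0.21 (SE) for P14 against P2, with an adjusted p of 0.00960 in limma's moderated test over all tested genes. Without P14 replicate 1 the adjusted p was 0.0633. Against P7 the change was 0.93 ± 0.21 (limma adjusted p = 0.0434), a call that was lost without any one of the 4 P7 and P14 libraries (adjusted p = 0.0798 to 0.238). That step was also smaller, and not called, after quantile normalization (0.37, adjusted p = 0.106) and after rescaling to TPM (0.47, adjusted p = 0.0600), and it was called in 10 of 18 alternatives in all.

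Mbnl2, a related protein with overlapping targets, stood at 28.3 and 33.5 FPKM at P2, 34.0 and 41.6 FPKM at P7, and 63.2 and 54.9 FPKM at P14. Its stages were also in rising order without overlap. P14 exceeded P2 by 0.92 ± 0.20 on the log2 scale (limma adjusted p = 0.0194), and this call was lost without P2 replicate 1 (adjusted p = 0.0523), P14 replicate 1 (0.115) or P14 replicate 2 (0.0586), and with no filter on low values (0.0503). Against P7 the difference was 0.63 ± 0.20 (limma adjusted p = 0.0805), which did not pass. The size of this step depended on scaling, at 0.33 after median-of-ratios scaling, 0.16 in TPM and 0.05 after quantile normalization (limma adjusted p = 0.794 for the last), where P7 against P2 was 0.62, 0.45 and 0.55 in the same order of scalings, against 0.28 on the deposited scale.

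Mbnl3, the X-linked member known from mouse myoblast cultures as an inhibitor of differentiation, had 3.12 and 3.93 FPKM at P2, 1.31 and 1.85 FPKM at P7, and 0.667 and 0.351 FPKM at P14. It was the lowest of the 9 genes at every stage, both P14 libraries were below 1 FPKM, and no stage overlapped another. P14 differed from P2 by -1.59 ± 0.20 (limma adjusted p = 0.00428), and the call remained in all 6 fits with 1 library left out. The pseudocount understates this change: on FPKM the P14 mean of 0.509 ± 0.224 was 0.144 times the P2 mean of 3.53 ± 0.569 (SD, n = 2 each). The 2 steps of -0.81 ± 0.20 (P7 against P2, limma adjusted p = 0.0867) and -0.77 ± 0.20 (P14 against P7, limma adjusted p = 0.0539) did not pass on their own, although the second passed under 8 of 17 alternatives and reached -1.56 in TPM. P2 replicate 2 and P7 replicate 1, the libraries with high Xist, held the higher Mbnl3 value of P2 and the lower of P7, and the part of sex in the change was not tested.

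The summed FPKM of the 3 muscleblind genes was 55.1 and 65.3 at P2, 64.0 and 79.9 at P7, and 134 and 111 at P14. Mbnl3 made up 0.496% and 0.316% of that sum at P14, against 5.66% and 6.02% at P2, while the share of Mbnl1 was 52.4% and 50.3% at P14, against 43.1% and 42.7% at P2. The sum lay higher in both P14 libraries than in any other library.

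**Figure D1:**
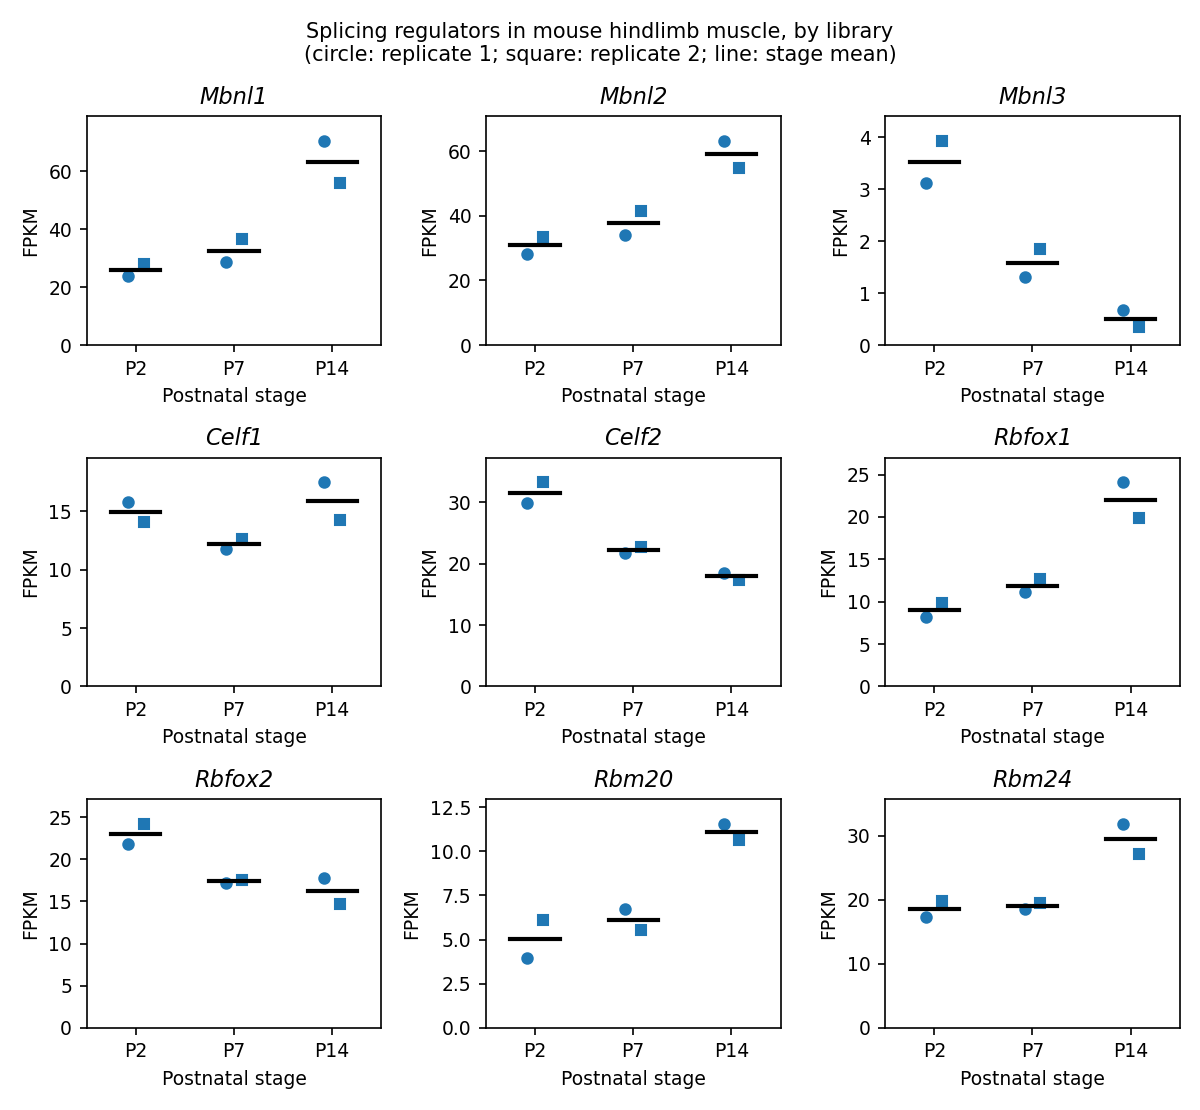
FPKM of the 9 splicing regulators (vertical axes from 0, each with its own range) at P2, P7 and P14; each point is 1 library (circle replicate 1, square replicate 2) and each line a stage mean of 2 libraries. Mbnl1, Mbnl2 and Rbfox1 rise and Mbnl3 and Celf2 fall through the 3 stages without overlap, and Rbm20 and Rbm24 are apart from the earlier stages only at P14.

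Celf1, an activator of fetal splicing choices and of mRNA decay, was at 15.8 and 14.1 FPKM at P2, 11.8 and 12.7 FPKM at P7, and 17.5 and 14.2 FPKM at P14. The P14 and P2 libraries overlapped, and the P7 libraries lay below both. The change was 0.07 ± 0.17 for P14 against P2 (limma adjusted p = 0.781), -0.27 ± 0.17 for P7 against P2 (limma adjusted p = 0.330) and 0.35 ± 0.17 for P14 against P7 (limma adjusted p = 0.210). Its direction depended on scaling: P14 against P2 was -0.07 after quantile normalization and -0.24 after rescaling to TPM, and P7 against P2 was 0.05 after median-of-ratios scaling. No direction is given for Celf1.

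Celf2, a related protein that binds similar sequences, stood at 29.8 and 33.3 FPKM at P2, 21.8 and 22.7 FPKM at P7, and 18.5 and 17.4 FPKM at P14. The stages fell in order without overlap. P14 differed from P2 by -0.78 ± 0.16 on the log2 scale (limma adjusted p = 0.0173). This call was lost without P7 replicate 2 (adjusted p = 0.0502), P14 replicate 1 (0.0844) or P14 replicate 2 (0.0891). The single steps were -0.48 ± 0.16 for P7 against P2 (limma adjusted p = 0.131) and -0.30 ± 0.16 for P14 against P7 (limma adjusted p = 0.245), and neither passed on the deposited scale. Scaling moved both: P7 against P2 was -0.15 after median-of-ratios scaling and -0.24 after quantile normalization, and P14 against P7 was -0.59, -0.72 and -0.78 after median-of-ratios scaling, quantile normalization and TPM, passing in all 3 (limma adjusted p = 0.0274, 0.0266 and 0.0199).

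The summed level of Celf1 and Celf2 was 45.7 and 47.4 FPKM at P2, 33.6 and 35.3 FPKM at P7, and 36.0 and 31.6 FPKM at P14. Celf2 made up 51.4% and 55.0% of it at P14, against 65.3% and 70.2% at P2. It was the larger share in all 6 libraries.

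Rbfox1, the Fox protein abundant in muscle, heart and neurons, was at 8.16 and 9.89 FPKM at P2, 11.1 and 12.7 FPKM at P7, and 24.1 and 19.9 FPKM at P14. The stages rose in order without overlap. P14 exceeded P2 by 1.198 ± 0.18 (limma adjusted p = 0.00699), a call that remained in all 18 alternatives, with adjusted p from 0.00167 to 0.0485. P14 exceeded P7 by 0.83 ± 0.18 (limma adjusted p = 0.0407), and this was lost without any one of the 4 P7 and P14 libraries (adjusted p = 0.0798 to 0.228), and also after quantile normalization (0.39, adjusted p = 0.0740) and in TPM (0.39, adjusted p = 0.0668). P7 against P2 was 0.36 ± 0.18 (limma adjusted p = 0.238).

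Rbfox2, the more widely expressed Fox protein, stood at 21.8 and 24.2 FPKM at P2, 17.2 and 17.6 FPKM at P7, and 17.8 and 14.7 FPKM at P14. Both P2 libraries were above all others, and P7 and P14 overlapped. The difference of P14 against P2 was -0.49 ± 0.17 (limma adjusted p = 0.0827), which did not pass. It passed under 3 of 18 alternatives, which were median-of-ratios scaling, quantile normalization and TPM, and was below 0 in all 18.

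The summed level of the 2 Fox genes was 30.0 and 34.1 FPKM at P2, 28.3 and 30.3 FPKM at P7, and 41.9 and 34.6 FPKM at P14. Rbfox1 supplied 27.2% and 29.0% of it at P2, 39.2% and 41.9% at P7, and 57.6% in each P14 library. The order of the pair in level was thus turned round at P14 in both libraries.

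Rbm20, the regulator of titin splicing, had 3.94 and 6.11 FPKM at P2, 6.72 and 5.53 FPKM at P7, and 11.6 and 10.6 FPKM at P14. P2 and P7 overlapped and both P14 libraries were above them. P14 exceeded P2 by 1.03 ± 0.21 (limma adjusted p = 0.0171), a call lost without P14 replicate 1 (adjusted p = 0.0905) or P14 replicate 2 (0.0573), and with no filter on low values (0.0606). P14 against P7 was 0.77 ± 0.21 (limma adjusted p = 0.0613), and 0.36 to 0.50 under the 3 other scalings.

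Rbm24, which promotes muscle exon inclusion, was at 17.3 and 19.8 FPKM at P2, 18.6 and 19.5 FPKM at P7, and 31.9 and 27.2 FPKM at P14. P2 and P7 overlapped almost fully and P14 stood apart. The change of P14 against P2 was 0.64 ± 0.17 (limma adjusted p = 0.0372). It is the least secure of the 7 calls, since it was kept in only 1 of 6 fits with a library left out, that without P2 replicate 2, and the other 5 gave adjusted p from 0.0838 to 0.204. The call was also lost with no filter on low values (adjusted p = 0.0654), with only the 4 libraries compared (0.0891) and in TPM (0.0518), where the change was 0.34, and 9 of 18 alternatives kept it. P14 against P7 was 0.60 ± 0.17 (limma adjusted p = 0.0658), with 0.13 to 0.31 under the 3 other scalings, and P7 against P2 was 0.04 ± 0.17 (limma adjusted p = 0.892).

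Counted together for P14 against P2, 5 of the 9 genes were called higher, where 11.5% of the 13566 tested genes were, and 2 were called lower, where 12.9% were. In either direction 7 of 9 were called against 24.3% of all tested genes. Over the 9 genes the median log2 change was 0.64, beside -0.05 over all tested genes. All of them except Celf1 had P14 libraries that did not overlap the P2 libraries, 5 higher and 3 lower, as 63.7% of tested genes also had (28.5% higher and 35.2% lower).

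For P14 against P7, 2 of the 9 genes passed, both higher (Mbnl1 and Rbfox1), where 8.75% of tested genes were called higher, and none passed lower, where 1.6% were (10.3% in either direction). The median change over the 9 genes was 0.60, beside 0.23 over all tested genes, and 6 of 9 had an unadjusted p below 0.05 in limma. Both calls were lost on removal of any one P7 or P14 library. With either P2 library removed instead, more genes passed in this pair, among the 9 and over all tested genes alike. The P14 and P7 libraries did not overlap for 6 genes that were higher and 2 that were lower, where 69.1% of tested genes did not overlap (53.8% higher and 15.3% lower).

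For P7 against P2 none of the 9 genes passed limma's test, where 1.29% of tested genes did (0.111% higher and 1.18% lower), and 2 of the 9, Mbnl3 and Celf2, had an unadjusted p below 0.05. Set against the median of all tested genes, which was -0.27, Rbfox1 stood 0.63, Mbnl1 0.59, Mbnl2 0.55 and Rbm20 0.53 higher on the log2 scale, and Mbnl3 lay at -0.54 relative to it. Rbfox1 and Mbnl1 ranked at the 95.4 and 94.5 percentiles of all tested changes. Non-overlap was common in this pair of stages, at 60.3% of tested genes (6.42% higher and 53.9% lower), and of the 9 genes 3 were higher and 4 lower in this way. Whether the P7 to P14 step differed from the P2 to P7 step was tested in the same fit. The contrast passed for 0 of 9 genes in limma, with 0 at an unadjusted p below 0.05, where 0.0663% of tested genes passed (0.0369% with a larger and 0.0295% with a smaller second step).

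**Figure D2:**
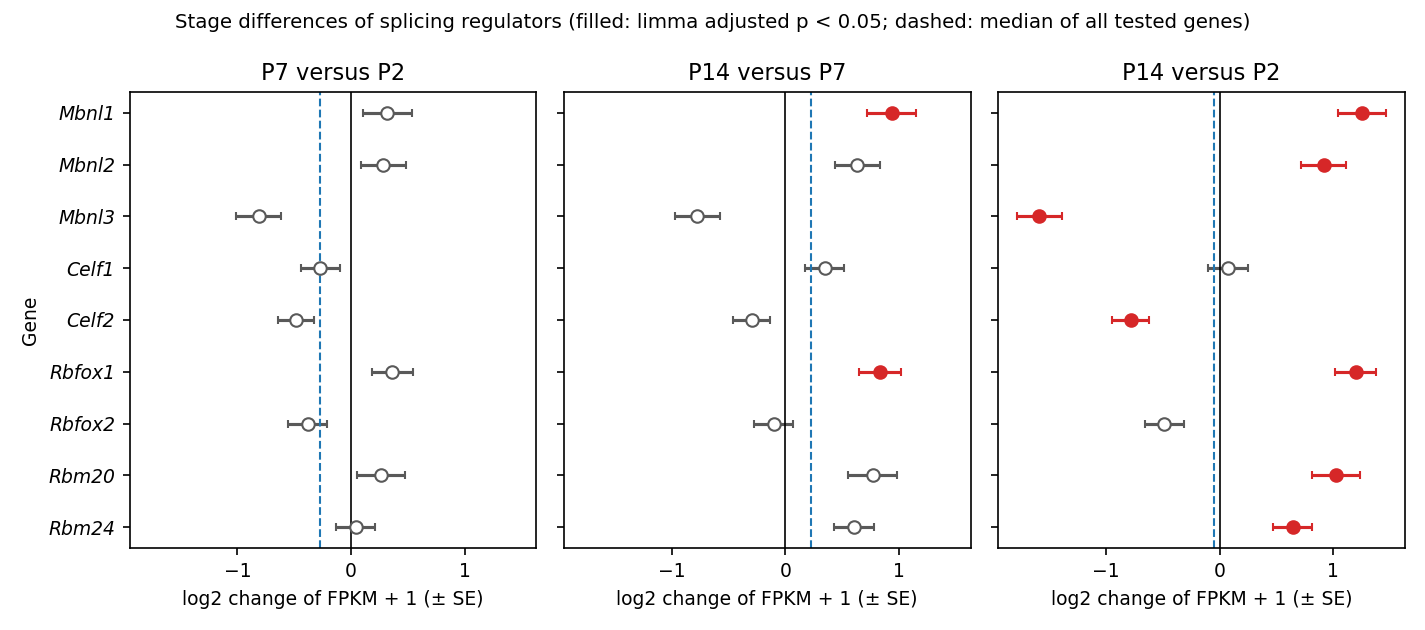
Log2 change of FPKM + 1 (horizontal axis) with its SE for the 9 genes in the 3 pairs of stages, filled where limma's adjusted p was below 0.05; the dashed line is the median of all tested genes. For P14 against P2, 5 filled points lie right of 0 and 2 left, for P14 against P7 Mbnl1 and Rbfox1 are filled, and for P7 against P2 none is.

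Over the 3 stages together, limma's F test called 6 of the 9 genes (Mbnl1, Mbnl2, Mbnl3, Celf2, Rbfox1 and Rbm20), where 21.1% of tested genes were called. Of the 9, Mbnl1, Mbnl2 and Rbfox1 rose stage by stage with no overlap between libraries, as 4.36% of tested genes did, and Mbnl3 and Celf2 fell in the same way, as 10.7% did. Without either P14 library the F test called only Mbnl3, and without either P7 library it called Mbnl1, Mbnl3 and Rbfox1.

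Ratios of related genes within a library do not depend on the scaling between libraries. Which gene of a pair stands higher also rests on the listed gene models, and those of Mbnl1 and Rbfox1 start inside the GENCODE genes. Rbfox1 over Rbfox2 was 0.374 and 0.408 at P2, 0.644 and 0.720 at P7, and 1.36 in both P14 libraries. The ratio was higher at each later stage with no overlap. Mbnl1 over Mbnl3 was 7.61 and 7.09 at P2, 22.0 and 19.7 at P7, and 106 and 159 at P14, where the Mbnl3 values behind it were below 1 FPKM.

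Mbnl1 over Mbnl2 was 0.841 and 0.832 at P2, 0.842 and 0.876 at P7, and 1.11 and 1.02 at P14, so Mbnl1 exceeded Mbnl2 in the P14 libraries and in no earlier one. Celf1 over Celf2 was 0.530 and 0.424 at P2, 0.540 and 0.558 at P7, and 0.945 and 0.820 at P14, with Celf2 the higher of the pair throughout. Rbm20 over Rbm24 was 0.229 and 0.309 at P2, 0.361 and 0.284 at P7, and 0.363 and 0.391 at P14, with P2 and P7 overlapping.

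Across families, Mbnl1 over Celf1 was 1.50 and 1.98 at P2, 2.44 and 2.88 at P7, and 4.03 and 3.92 at P14. Mbnl1 over Celf2 was 0.796 and 0.837 at P2, 1.32 and 1.61 at P7, and 3.80 and 3.22 at P14. The RNA of the muscleblind gene thus stood below that of Celf2 at P2 and above it from P7. The ratios are descriptions, since an exact permutation test of 2 libraries against 2 cannot give a p below 0.333.

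**Figure D3:**
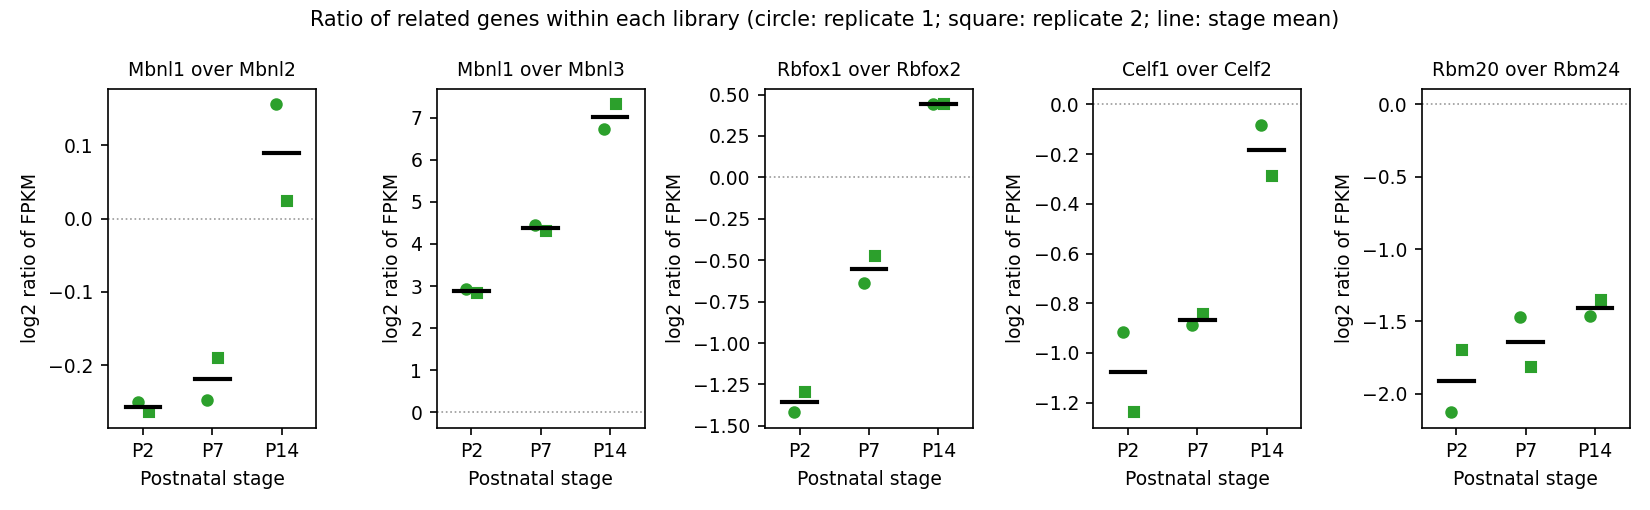
Log2 ratio of FPKM of 2 related genes within each library (vertical axes with their own ranges; circle replicate 1, square replicate 2, line the stage mean, dotted line equal levels). Rbfox1 over Rbfox2 and Mbnl1 over Mbnl2 lie below the dotted line at P2 and P7 and above it at P14, and Mbnl1 over Mbnl3 lies above it at every stage.

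The order of FPKM levels was rearranged. At P2 it ran Celf2, Mbnl2, Mbnl1, Rbfox2, Rbm24, Celf1, Rbfox1, Rbm20 and Mbnl3 from high to low, and the libraries of the neighbours Celf2 and Mbnl2, and of Mbnl1 and Rbfox2, overlapped. At P7 it ran Mbnl2, Mbnl1, Celf2, Rbm24, Rbfox2, Celf1, Rbfox1, Rbm20 and Mbnl3, with overlap between Mbnl2 and Mbnl1 and between Celf1 and Rbfox1. At P14 it ran Mbnl1, Mbnl2, Rbm24, Rbfox1, Celf2, Rbfox2, Celf1, Rbm20 and Mbnl3, with overlap between Mbnl1 and Mbnl2, Celf2 and Rbfox2, and Rbfox2 and Celf1. Celf2 held the fifth place at P14 and the highest at P2, and Mbnl1 held the highest at P14 and the third at P2.

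The authors' deposited table for P14 against P2 gives a fold, the larger stage value over the smaller, with a minus sign where the later stage is lower. In the authors' deposited table Mbnl1 and Rbfox1 were each 2.62-fold higher at P14, Rbm20 2.40-fold, Mbnl2 2.06-fold and Rbm24 1.71-fold. The authors' deposited table has Mbnl3 at -6.48 and Celf2 at -1.64, the last with an unadjusted p of 0.29985, so the call on Celf2 here is not one that table makes at 0.05. The authors' deposited table has an unadjusted p below 0.05 for 6 of the 9 genes in this pair, all 6 also called here, and its direction was the same for all 9. For P7 against P2 the authors' deposited table has 4 such genes (Mbnl1, Mbnl2, Rbfox1 and Rbm20, at 1.55-fold to 1.66-fold higher). None of the 9 genes was called here in that pair, and the unadjusted limma p of these 4 was 0.0883 to 0.260. Their ratios of stage means here were smaller, from 1.22 (Rbm20) to 1.32 (Rbfox1). The authors' stage values are also on another scale, with Mbnl1 at P2 at 53.6 FPKM in this pair, against 25.8 FPKM here. For P14 against P7 the authors' deposited table has 6 such genes, including the 2 called here.

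Other genes were ranked by likeness of their profile to a member, as the root mean square difference of log2(FPKM + 1) over the 6 libraries, each gene centred on its own mean. All genes of a library share its depth and scaling, so the distances are descriptions. Nearest to Mbnl1 were Fahd1 (0.0353), Ndufaf4 (0.0430) and Tmem233 (0.0596), and nearest to Mbnl2 were Rnft1 (0.0436), mt-Co1 (0.0512) and Hccs (0.0559). Genes near Rbfox1 included Zfand5 (0.0411) and Cacna2d1 (0.0455), and nearest to Rbm20 were Ank1 (0.0550), Ptprb (0.0579) and Podxl (0.0620). Celf2 was nearest to Penk (0.0459), Lima1 (0.0507) and Enah (0.0540). The genes nearest to Mbnl3 were farther from it, with Hmgb2 (0.124), Ndn (0.126) and Marcksl1 (0.127). Among the 9 genes themselves Mbnl1 and Rbfox1 were the nearest pair (0.0651), followed by Mbnl2 and Rbfox1 (0.124) and Celf2 and Rbfox2 (0.132).

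On the deposited scale none of the other listed Rbm genes that were tested passed for P14 against P2. The other listed Celf and Rbfox genes were not tested. Of the 13 listed, 8 were tested, all of them grouped here by the Rbm symbol. For P14 against P2 on the deposited scale, 0 were called in limma (1 at an unadjusted p below 0.05), where 24.3% of all tested genes were, with a median of -0.25. This count depended on scaling: 6 of the 8 were called lower in TPM (median of all genes -0.35) and 2 after quantile normalization, while median-of-ratios scaling gave 1 higher. Rbm6 and Rbm10, splicing factors expressed in many tissues, each had a change of -0.39, with limma adjusted p = 0.136 and 0.144. Celf3, Celf4, Celf5, Celf6 and Rbfox3, largely neuronal genes, were below 1 FPKM in every library. Rbm38, an RNA-binding protein of differentiating muscle, stood at 15.0 and 15.9 FPKM at P14 against 7.01 and 6.75 FPKM at P7, with a change of 1.06 ± 0.18 (limma adjusted p = 0.0271), a call lost without any one of those 4 libraries (adjusted p up to 0.159). Its change for P14 against P2 was 0.53 ± 0.18 (limma adjusted p = 0.0764).

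Of 25 other tissue-regulated splicing factors, 17 were tested, and for P14 against P2 2 were called higher and 3 lower, with a median of -0.32. Over all tested genes 11.5% were called higher and 12.9% lower. The number called lower was 5 after median-of-ratios scaling, 7 after quantile normalization and 12 in TPM, each with 2 called higher. Ptbp1, the polypyrimidine tract-binding repressor of many tissue exons, stood at 15.8 and 12.1 FPKM at P14 against 25.4 and 34.2 FPKM at P2, a change of -1.04 ± 0.21 (limma adjusted p = 0.0167, and 0.0833 without P14 replicate 2). The related repressor Ptbp3 changed by -0.71 ± 0.15 (limma adjusted p = 0.0197), a call lost without either P14 library (adjusted p up to 0.0990). Zfp106, a zinc finger RNA-binding protein, rose by 0.90 ± 0.21 (limma adjusted p = 0.0230) against P2 and by 1.09 ± 0.21 (limma adjusted p = 0.0317) against P7. Fxr1, a relative of the fragile X protein that is abundant in muscle, rose by 0.78 ± 0.21 against P2 (limma adjusted p = 0.0352). The Zfp106 and Fxr1 calls against P2 were kept in only 1 of 6 fits with a library left out, that without P2 replicate 2, and that of Zfp106 against P7 in 2 of 6, those without a P2 library (adjusted p up to 0.190 over these fits, and up to 0.200 for Fxr1).

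Few genes of the general splicing machinery passed on the deposited scale. For P14 against P2, 11.5% of all tested genes were called higher and 12.9% lower, beside which the counts of these lists stand. Of 21 tested SR proteins and their kinases, 0 were called for P14 against P2 in limma (2 at an unadjusted p below 0.05), with a median of -0.22. The largest changes were those of Srrm1 (-0.52 ± 0.19), Srsf11 (-0.51 ± 0.17) and Srsf1 (-0.41 ± 0.17), none passing. Of 24 tested hnRNP proteins, which bind nascent RNA, 4 were called lower and none higher, with a median of -0.38. These were Hnrnpd (-1.11 ± 0.23, limma adjusted p = 0.0175), Hnrnpr (-0.93 ± 0.17, limma adjusted p = 0.0110), Hnrnpa1 (-0.80 ± 0.21, limma adjusted p = 0.0355) and Syncrip (-0.66 ± 0.18, limma adjusted p = 0.0381). Hnrnpd and Hnrnpr lost their calls without P14 replicate 1 (adjusted p = 0.0990 and 0.0803), and without that library none of the 24 was called. Hnrnpa1 and Syncrip lost theirs in 5 of 6 such fits (adjusted p up to 0.172 and 0.169). That of Hnrnpa1 was kept without P2 replicate 1 and that of Syncrip without P2 replicate 2. Of 33 core spliceosome genes, 1 was called lower (Snrpd1, -0.73 ± 0.21, limma adjusted p = 0.0471, lost in every fit with a library left out), with a median of -0.16. Sf3a3 (-0.50 ± 0.21) and Snrpd3 (0.48 ± 0.20) followed it in size and did not pass. Prpf31, a factor of the U4/U6 particle, rose for P14 against P7 by 0.74 ± 0.18 (limma adjusted p = 0.0459), a call kept in 2 of 6 fits with a library left out, those without a P2 library (adjusted p up to 0.234 otherwise). The counts of these lists depended on scaling: after rescaling to TPM, which put the median of all genes at -0.35, 14 SR, 22 hnRNP and 19 core genes were called lower (7, 18 and 7 after quantile normalization), with medians of -0.19, -0.37 and -0.14 relative to that of all genes.

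**Figure D4:**
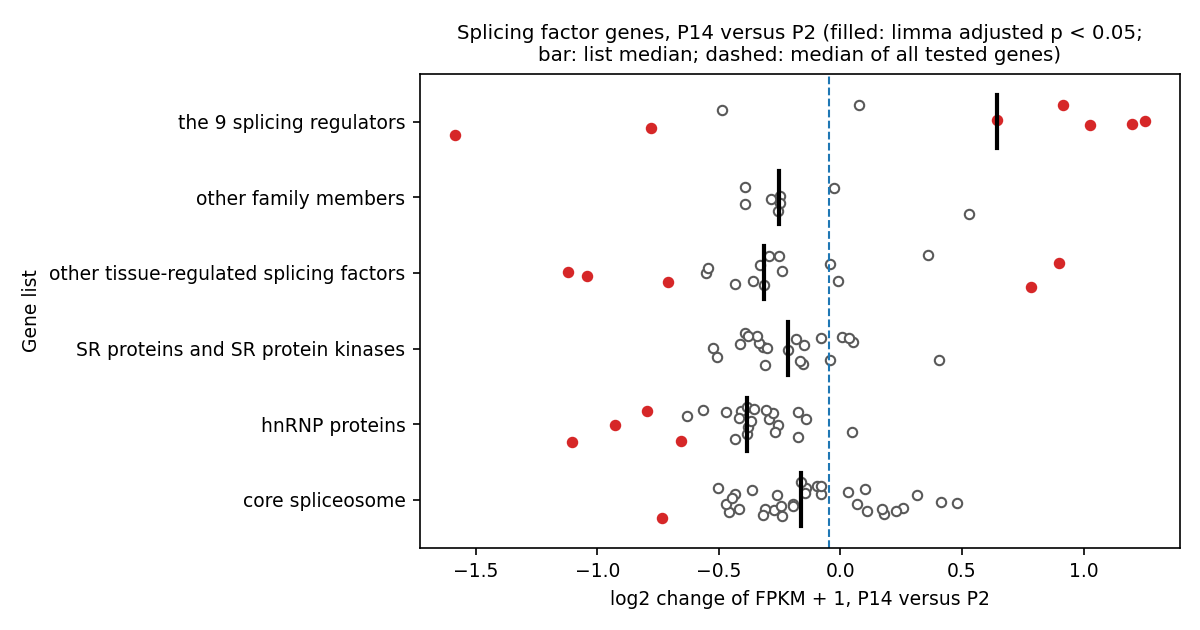
Log2 change of FPKM + 1 for P14 against P2 (horizontal axis) of each tested gene of 6 lists of splicing factors (1 row per list), filled where limma's adjusted p was below 0.05; bars are list medians and the dashed line is the median of all tested genes. The median of the 9 splicing regulators lies at 0.64 and those of the other 5 lists lie between -0.38 and -0.16, on the scale of the deposited FPKM.

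Muscle genes known for regulated splicing were mostly higher in total RNA at P14 than at P2, a pair in which 11.5% of all tested genes were called higher and 12.9% lower. Of 25 tested, 14 were called higher and 2 lower for P14 against P2, with a median of 0.90, but without P14 replicate 1 the counts were 2 higher and 1 lower. Clcn1, the chloride channel whose missplicing underlies myotonia, was at 29.9 and 26.1 FPKM at P14 against 5.09 and 7.16 FPKM at P2, a change of 2.04 ± 0.19 (limma adjusted p = 0.00208, called in all 6 fits with 1 library left out). Tnnt2, the cardiac troponin T expressed in young skeletal muscle and a classic CELF and muscleblind target, was at 4.26 and 3.75 FPKM at P14 against 32.5 and 21.3 FPKM at P2 (-2.45 ± 0.22, limma adjusted p = 0.00176, likewise called in all 6). Ttn, which encodes titin, the main known Rbm20 target, was listed at 0 in P14 replicate 1 and at 926 FPKM in P14 replicate 2, with 600 to 624 FPKM in the P2 and P7 libraries, so no fold is given.

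Muscle is a mixture of cells, and in bulk samples fewer cells of a type and less RNA per cell cannot be told apart. The summed FPKM of 9 matched myofibre markers was 2322 and 3699 at P2, 5294 and 5342 at P7, and 15084 and 11404 at P14. For P14 against P2, 8 of the 9 were called higher, and Des was not (0.49 ± 0.23, limma adjusted p = 0.163). This sum and the rising members were higher at P14 than at P2. From P2 to P7 the sum rose without overlap, as did Mbnl1, Mbnl2 and Rbfox1, and Rbm20 and Rbm24 overlapped between those stages. The summed FPKM of 8 neutrophil and marrow markers was 302 and 169 at P2, 86.1 and 35.4 at P7, and 3.48 and 2.39 at P14, with 8 of 8 called lower. Of these, Elane and Mpo reached 1 FPKM only at P2, so they passed the filter only through the stage where they were high. This sum and the falling members were lower at P14 than at P2. Called lower for P14 against P2 were also 3 of 6 tested satellite cell, 2 of 8 macrophage, 4 of 8 adipocyte, 3 of 7 erythroid and 4 of 7 cartilage and bone markers (1 higher), while 3 of 8 endothelial and 3 of 8 mural markers (1 lower) were called higher. Over all tested genes 12.9% were called lower and 11.5% higher in this pair. Satellite cell markers summed to 26.6 and 31.2 FPKM at P2, 22.1 and 19.6 FPKM at P7, and 23.5 and 19.8 FPKM at P14. Fibroblast markers gave 0 of 8 calls in limma (0 at an unadjusted p below 0.05), with sums of 995 to 1812 FPKM over the libraries. The heart genes Nppa, Nppb, Myl7 and Nkx2-5, the neuronal genes Rbfox3, Syp, Snap25 and Nefl, and 7 of 8 lymphocyte markers were below 1 FPKM in every library. The part of myofibres or of any other cell type in the changes of the 9 genes was not tested.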

How the data were processed

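Hindlimb muscle RNA of 6 libraries (2 at each of 3 stages) was prepared with a stranded, ribosome-depleted kit, per the labels' protocols. The submitters' processing notes name TopHat2 2.0.8, Cuffdiff 2.2.1 and Cufflinks 2.2.1, besides FastQC 0.10.1 and CASAVA 1.2-14, with GRCm38; the annotation and any scaling between libraries are not given in the sources used here. The authors deposited FPKM per gene and library, and, per the file headers, comparison tables with a ratio (fold) and an unadjusted p-value. Among them, 12 columns of per-sample values could not be tied to a sample and were not used.

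Genes with at least 1 FPKM in at least 2 libraries (13566 of 39010; 9514 were listed at 0 throughout) were analysed as log2(FPKM + 1) with limma 3.58.1 in R 4.3.3, with 1 mean per stage, a variance trend and 3 residual and 3.80 prior degrees of freedom. Tests are two-sided, with Benjamini-Hochberg adjustment of p over the tested genes and calls below 0.05. Log2 differences had a median SE of 0.19. Depth in reads is unknown. The p-values rest on the spread between 2 libraries a stage, pooled over the 3 stages and moderated toward the trend over all tested genes. Leaving out a library of a stage therefore also alters calls in the pair of stages that lacks it. The alternatives, given in the closing section, changed pseudocount, filter, scaling, variance model, gene set and libraries. TPM rescaling and the contrast between steps were chosen after seeing the data.

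The 9 genes and all lists were chosen with earlier results of these data known. Named in the text are the 9 genes, up to 3 tested genes per splicing list with the largest change of P14 against P2, those called in the other pairs, and the 3 nearest profiles of each member called by the F test (protein-coding, mean of at least 5 FPKM). Marker lists are given by sums and counts. Some genes that the rule names are not reported here. Ptbp3, Fxr1 and Syncrip fall outside that rule and were named after their values were seen.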

Additional observations from a re-analysis of the deposited data

How the results depend on the processing

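For P14 against P2 the count of higher genes among the 9 was 5, and it was 2 with no filter on low values and 4, without Rbm24, with TPM, the replicate block or only the 4 libraries compared. The count of lower genes was 2, and it was 1 with the filter at 5 FPKM (where Mbnl3 was not tested) and 1 with the replicate block, which lost Celf2 (adjusted p = 0.0511), but 3, with Rbfox2 added, with median-of-ratios scaling, quantile normalization or TPM. Leaving out 1 library gave 1 to 5 higher and 1 to 2 lower. For P7 against P2, where 0 were called, quantile normalization gave 1 higher and protein-coding genes alone gave 1 lower, while leaving out 1 library gave 0. For P14 against P7 the 2 higher genes became 0 with no filter, quantile normalization, the replicate block or TPM, 4 with the filter at 5 FPKM or protein-coding genes alone, and 5 with only the 4 libraries of that pair. The count of lower genes, 0 there, became 1 with a pseudocount of 0.1, protein-coding genes alone, robust moderation or only those 4 libraries, 2 with median-of-ratios scaling or quantile normalization, and 3 with TPM. Leaving out 1 library gave 0 to 5 higher and 0 to 1 lower. The F test called 6 genes, 0 with no filter, 2 with the replicate block, and 1 to 6 with 1 library left out. Calls over all tested genes moved too. For P14 against P2 the main fit gave 1557 higher and 1744 lower of 13566. No filter gave 619 and 915 of 29496, and TPM 1411 and 4358 of 13566. For P14 against P7 the main fit gave 1187 and 217, and the filter at 5 FPKM 1568 and 198 of 7245. Protein-coding genes alone gave 1981 and 328 of 12048, and the 4 libraries of that pair 2933 and 479 of 12672. TPM gave 622 and 1220 there. The no-filter and left-out fits differ by construction in genes tested or in samples. Otherwise the cause was not tested.

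Of 483 values of single genes under an alternative, 404 kept direction and side of the threshold, 32 newly passed, 37 no longer passed and 10 changed sign. For Celf1 the change of P14 against P2 was -0.0678 (quantile) and -0.2422 (TPM), that of P7 against P2 was 0.0544 (median-of-ratios), and that of P14 against P7 was -0.0588 (quantile) and -0.1125 (TPM). Over fits with 1 library left out, Celf1 ranged between -0.0656 and 0.2147 for P14 against P2 (below 0 without P14 replicate 1 and, at -0.0034, without P2 replicate 2). Rbm20 ranged between -0.0013 and 0.5219 and Rbm24 between -0.0539 and 0.1332 for P7 against P2 (both lowest without P2 replicate 1), and Rbfox2 between -0.2328 and 0.0276 for P14 against P7 (highest without P14 replicate 2).

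The replicate numbers do not pair the libraries by any label, and the replicate differences correlated over genes at -0.02 (P2 and P7), -0.16 (P2 and P14) and 0.03 (P7 and P14). With the replicate block, 4 genes were called higher and 1 lower for P14 against P2, all among the 7 called without it. With 2 libraries a stage, small changes are not detectable.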
